A study of Mus musculus with 4 samples.

Results

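Promoter flank regions are the reproducible phosphorylated STAT3 (pSTAT3) regions whose midpoint lay over 250 bp and up to 1 kb from the nearest transcription start, where all starts within 1 kb were read in the same direction. The position was that of the midpoint, which the authors' region table gives as its summit, and the starts were those of the transcripts in the same table. There were 987 such regions among 12925 reproducible regions (7.64%), at the starts of 932 genes. Upstream of the start lay 554 and downstream of it 433, so that 56.1% were upstream. They are set beside 1578 core regions (midpoint within 250 bp of a one-direction start), 527 regions with starts of both directions within 1 kb, 1913 regions from 1 to 5 kb away, and 7920 regions farther away.

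The regions came from chromatin immunoprecipitation and sequencing of primary cortical progenitors of oligodendrocytes from C57BL/6 mice, the dividing precursors of myelin-forming oligodendrocytes, with an antibody against STAT3 phosphorylated at Y705. All cells grew with PDGF-AA at 10 ng/ml as one mitogen and bFGF at 20 ng/ml as another, and all were given CNTF, a cytokine, at 100 ng/ml for 15 min. There were 2 pSTAT3 ChIP libraries and 2 inputs of the same treated cells. The inputs were not analysed here, and no untreated cells are compared. The labels name no separate cultures and say that lysed cells were pooled, so differences between the ChIP libraries may be technical. No test over samples can be made with 2 libraries of 1 condition, and none was made over regions, so every difference below is a description and none is called particular to flank regions.

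CNTF signals through a receptor that contains gp130, and the JAK kinases bound to it phosphorylate STAT3. Phosphorylated STAT3 pairs with itself, enters the nucleus and binds DNA at palindromic sites of the form TTCNNNGAA. Near a gene, such a site can lie in the core promoter, where the general transcription machinery assembles, or in the sequence before and after it, where many gene-specific factors bind and, downstream, where transcription is already under way. STAT3 is known in the nervous system for switching on astrocyte genes such as Gfap and its own feedback inhibitor Socs3.

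Sequences are mostly shown where the DNA under a flank region's summits could be read, because most flank regions lie outside the stretch that was available. That stretch was the RefSeq promoter window of each gene (GRCm38.p6), from 250 bases before to 50 after its start. Of the 987 flank regions, 251 overlapped such a window (192 upstream and 59 downstream). In 72 of them the summits of both libraries fell inside 1 window. Such windows reach at most 250 bp from a RefSeq start. The 72 are thus flank regions by midpoint whose enrichment peaked near such a start. Shares among them do not describe flank regions that peaked farther out. In 9 of these 72 (12.5%, 95% Wilson interval 6.72 to 22.1) a TTCNNNGAA motif lay within 50 bp of both summits, against 93 of 658 core regions (14.1%, 11.7 to 17.0); anywhere in the window, the motif occurs in 8.29% of all 32817 promoter windows. Of the 9, 7 are printed 5′ to 3′ along the gene's strand, with up to 40 bases on either side of the motif, which is in capitals; the other 2 matched windows of other RefSeq loci. The stretches lie at chr4:156031821-156031909 on the minus strand (Gm16008), chr2:127522110-127522198 on the minus strand (Kcnip3), chr5:139907688-139907776 on the plus strand (Elfn1), chr5:134184059-134184087 on the plus strand (Gtf2ird2), chr17:26939607-26939695 on the minus strand (Cuta), chr8:120736165-120736253 on the plus strand (Irf8) and chr17:86962861-86962949 on the plus strand (Rhoq).
Gm16008: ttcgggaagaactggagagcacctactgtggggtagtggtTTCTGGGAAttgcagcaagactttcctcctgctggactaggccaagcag
Kcnip3: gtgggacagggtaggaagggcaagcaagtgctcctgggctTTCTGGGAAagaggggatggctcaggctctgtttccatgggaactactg
Elfn1: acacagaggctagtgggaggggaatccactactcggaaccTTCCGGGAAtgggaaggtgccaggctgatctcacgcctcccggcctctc
Gtf2ird2: ccgaccttccTTCCAGGAAgcaaacaaag
Cuta: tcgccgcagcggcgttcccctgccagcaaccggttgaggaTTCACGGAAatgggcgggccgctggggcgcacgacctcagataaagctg
Irf8: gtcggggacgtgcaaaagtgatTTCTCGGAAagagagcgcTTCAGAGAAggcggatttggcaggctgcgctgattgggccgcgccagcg
Rhoq: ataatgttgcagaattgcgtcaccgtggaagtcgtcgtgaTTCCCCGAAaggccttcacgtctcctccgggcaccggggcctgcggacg

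The centre of the motif of Gm16008, a predicted gene, lay 3 bp from the replicate 1 summit and 23 bp from the replicate 2 summit, and its region had 30.4-fold enrichment in replicate 1 and 29.6-fold in replicate 2. Fold enrichment is the authors' value per peak over the local background, and each region takes the strongest peak of each library that overlaps it. Kcnip3, which encodes a calcium-binding potassium channel subunit and repressor, had 32.2-fold and 24.8-fold enrichment, and carries the same letters, TTCTGGGAA. Elfn1, a synaptic adhesion gene in neurons, had 25.4-fold and 21.0-fold enrichment. Irf8, a transcription factor of microglia and other myeloid cells, has 2 motifs in the printed stretch and had 20.1-fold and 13.8-fold enrichment. Cuta had 27.0-fold and 14.6-fold enrichment, and its motif lay 4 bp and 21 bp from the summits. Gtf2ird2 had 22.0-fold and 18.2-fold enrichment, and although its midpoint lay 260 bp inside the gene the summits lay 36 and 35 bp from the start, with the motif 10 and 11 bp beyond them. Rhoq, a small GTPase gene, had 8.74-fold and 7.48-fold enrichment with a motif 7 bp and 18 bp from the summits. Rhoq lay somewhat below the median flank region in both libraries, and the other 6 printed regions were stronger in both libraries.

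For contrast, 4 strong upstream regions are shown that had both summits inside the gene's own window and no TTCNNNGAA in it. The printed stretches hold the bases between and around those summits and carry no capitals. They lie at chr19:47067524-47067612 on the plus strand (Taf5), chr19:8953726-8953814 on the plus strand (Tut1), chr7:16309382-16309470 on the plus strand (Bbc3) and chr1:134079320-134079405 on the minus strand (Btg2).
Taf5: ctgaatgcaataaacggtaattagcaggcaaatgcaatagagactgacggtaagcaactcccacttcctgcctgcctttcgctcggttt
Tut1: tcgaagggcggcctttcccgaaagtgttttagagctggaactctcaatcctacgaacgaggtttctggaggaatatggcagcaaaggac
Bbc3: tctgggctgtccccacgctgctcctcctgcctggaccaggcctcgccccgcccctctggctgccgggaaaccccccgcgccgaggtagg
Btg2: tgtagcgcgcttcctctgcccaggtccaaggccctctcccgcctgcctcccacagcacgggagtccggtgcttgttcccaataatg

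Taf5, a subunit of the general transcription factor TFIID, had 44.4-fold and 37.1-fold enrichment with summits 180 and 179 bp upstream. Tut1, an enzyme that adds nucleotides to the end of U6 and other RNAs, had 35.2-fold and 33.6-fold enrichment. Bbc3, which encodes the pro-apoptotic protein PUMA, had 34.6-fold and 31.6-fold enrichment. Btg2, an anti-proliferative immediate early gene, had 31.6-fold and 23.8-fold enrichment. These 4 were picked from the strong regions of this kind and are not its 4 strongest. Their folds are therefore not compared with those of the regions with a motif. The absence of the letters holds for these windows and says nothing more about STAT3.

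The 3 strongest flank regions by the lower of both folds had a motif in the window, over 50 bp from both summits. Only at Etv6 did the window hold the summits too. The stretches lie at chr11:117969472-117969560 on the minus strand (Socs3), chr6:134035711-134035739 on the plus strand (Etv6) and chr11:102897194-102897242 on the minus strand (Gfap), with the motif in capitals.
Socs3: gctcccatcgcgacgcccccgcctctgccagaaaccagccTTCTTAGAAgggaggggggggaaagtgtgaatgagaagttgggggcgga
Etv6: agtttctctcTTCCAGGAAggaaaacatt
Gfap: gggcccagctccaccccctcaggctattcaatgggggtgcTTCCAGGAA

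The Socs3 motif lay 253 and 260 bp from the summits of replicates 1 and 2, the Etv6 motif 59 and 79 bp, and the Gfap motif 1439 and 1446 bp. At Socs3 the summits were outside the window and at Gfap far outside it, so the sequence at those summits was not read. Whether a motif lies there is not known from these windows. TTCNNNGAA reads the same on both strands. Among the 251 flank regions that overlap a window, 23 (9.16%, interval 6.18 to 13.4) held it in the part they cover, which had a median of 241 bp, close to the 8.29% of whole windows. Among 1047 core regions, 171 (16.3%, 14.2 to 18.7) held it in a median of 300 covered bp. Where both summits lay in the window, the shares were 19.4% (11.95 to 30.03) of 72 flank regions and 21.0% (18.03 to 24.2) of 658 core regions, so these intervals overlapped. Both of these sets peaked near a RefSeq start, because the window ends there. The stricter form TTCCNGGAA, which every such match also counts as TTCNNNGAA, was in 1.15% of windows and in 7 of the 251 flank regions (2.79%). A match is a description of the letters, not a shown binding site.

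Enrichment in the flanks was much like that at other positions. The median fold enrichment of flank regions was 10.5 in replicate 1 and 7.67 in replicate 2, against 10.5 and 7.43 for core regions, 10.2 and 7.42 for regions 1 to 5 kb away, and 10.4 and 7.51 for all regions. Upstream flank regions had medians of 10.5 in replicate 1 and 7.68 in replicate 2, and downstream ones 10.4 and 7.53. The upstream minus downstream difference of medians was 0.01 in replicate 1 and 0.03 in replicate 2 on the log2 scale, far smaller than the spread among regions, whose middle 50% ran from 5.89 to 11.8 upstream and from 5.64 to 11.1 downstream by the lower of both folds. At the summit a median of 70 fragments (replicate 1) and 34 (replicate 2) were stacked upstream, and 67 and 33 downstream. Replicate 1 had the higher fold in 936 of 987 flank regions (94.8%), by a median factor of 1.31, against 1.33 over all regions. Among the strongest regions the libraries could lie closer together, as at Socs3 (49.9-fold and 49.2-fold), or replicate 2 could be higher, as at Lmna (43.4-fold and 45.2-fold).

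**Figure D1:**
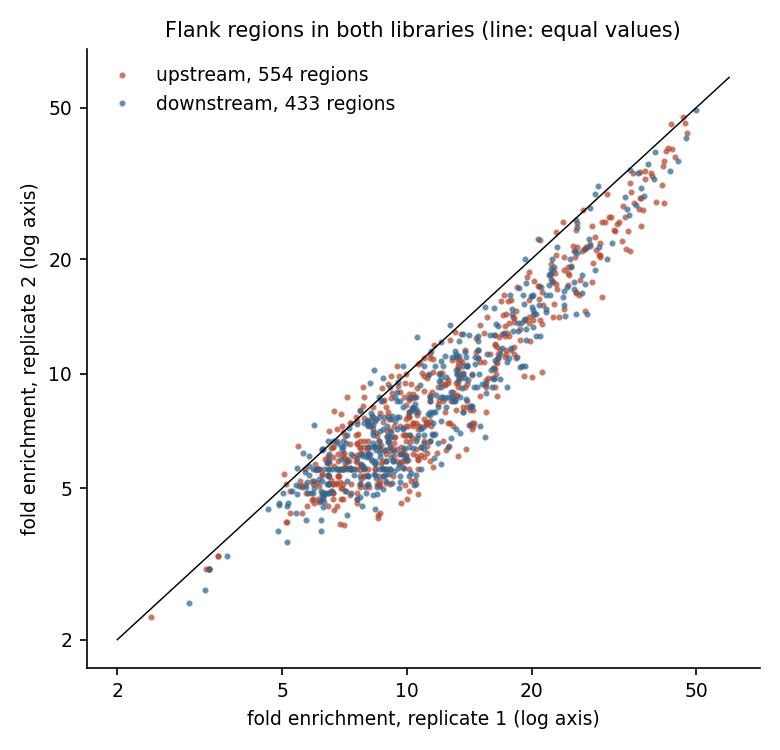
Fold enrichment of each flank region in both ChIP libraries, each on a log axis, upstream and downstream regions in different colours. Most points (936 of 987) lie on the replicate 1 side of equality, by a median factor of 1.31.

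Strong regions were more frequent upstream than downstream by count. A lower fold of at least 20 was reached by 66 of 554 upstream regions (11.9%, interval 9.47 to 14.9) and 29 of 433 downstream regions (6.70%, 4.70 to 9.45), against 7.76% of all regions. All flank regions together gave 95 (9.63%, 7.94 to 11.6), core regions 8.49% and regions 1 to 5 kb away 6.01% (5.03 to 7.17). The difference was 5.22 percentage points, and smaller without replicate 2: in replicate 1 alone, 18.6% (15.6 to 22.0) of upstream and 15.7% (12.6 to 19.4) of downstream regions reached 20-fold, with overlapping intervals and a difference of 2.89 points. It was 2.70 points when the replicate 2 summit gave the position. By 250 bp bands upstream, the share was 13.1%, 11.9% and 9.16% from 250 to 500, 500 to 750 and 750 to 1000 bp (39 of 297, 15 of 126 and 12 of 131 regions). Downstream it was 4.94%, 7.87% and 7.64% in the same bands (8 of 162, 10 of 127 and 11 of 144). Within 250 bp of the start, outside the flanks, the order was the opposite, with 7.74% (70 of 904) upstream and 9.39% (62 of 660) downstream. At the weak end, 89 flank regions (9.02%, 7.39 to 11.0) had a lower fold under 5, against 14.01% of core regions and 12.4% of all regions.

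**Figure D2:**
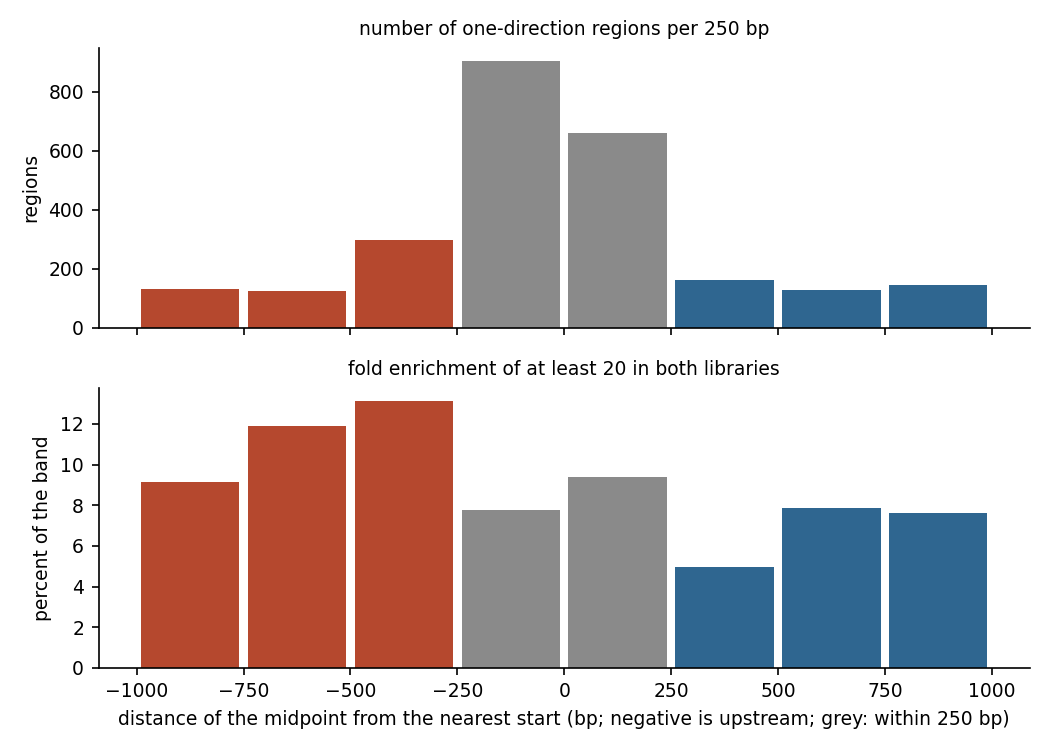
Number of regions and percent with a lower fold of at least 20, by 250 bp band of the midpoint's signed distance from the start (bp). Upstream bands from 250 bp outward give 13.1%, 11.9% and 9.16%, and downstream bands 4.94%, 7.87% and 7.64%.

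Among the strongest upstream regions were genes of several kinds. Etv6, an ETS-family transcriptional repressor (ENSMUSG00000030199), had the strongest, at chr6:134034361-134036213 (GRCm38.p3), with 46.3-fold enrichment in replicate 1 and 47.2-fold in replicate 2. Although its midpoint lay 413 bp upstream, the Etv6 summits lay 34 and 54 bp upstream of the start. The libraries differed little there, and 298 and 205 fragments were stacked at the summits. Gfap, the intermediate filament of astrocytes (ENSMUSG00000020932), had 46.9-fold and 45.6-fold enrichment at chr11:102896698-102899076. Lmna, which encodes the nuclear lamins A and C, had 43.4-fold and 45.2-fold enrichment with both summits 375 bp upstream. Myt1, a zinc finger factor of the oligodendrocyte and neuronal lineages, had 47.6-fold and 42.9-fold enrichment with summits 263 and 274 bp upstream. Xylt1, the enzyme that starts glycosaminoglycan chains on proteoglycans, had 42.7-fold and 39.2-fold enrichment, and Lpo (lactoperoxidase) 43.6-fold and 38.9-fold. The list of the 12 strongest upstream regions went on with an unannotated clone-named gene, Taf5, Col16a1 (a collagen chain, 41.8-fold and 36.2-fold), Spaca6 (a sperm membrane protein, 41.5-fold and 35.2-fold), Nav1 (a microtubule-associated protein, 37.5-fold and 34.1-fold) and Ppm1h (a phosphatase, 36.6-fold and 33.8-fold).

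Downstream, Socs3 stood first. Its region at chr11:117966894-117970258 was 3365 bp wide, the widest downstream, and had 49.9-fold and 49.2-fold enrichment; although its midpoint lay 610 bp inside the gene, the summits lay 77 and 70 bp upstream of the start. Rnf122, a RING-type ubiquitin ligase gene, had 47.2-fold and 41.5-fold enrichment with summits 1449 and 1458 bp downstream. Fgr, a Src-family kinase of myeloid cells, had 45.2-fold and 36.2-fold enrichment with summits 959 and 941 bp downstream. Cd81, a tetraspanin, had 43.2-fold and 34.0-fold enrichment, and Parp11 (an ADP-ribosyltransferase) 34.6-fold and 34.2-fold. Cpne8, a copine that binds phospholipids, had 37.5-fold and 29.4-fold enrichment, and Hivep2, a large zinc finger factor, 33.7-fold and 29.0-fold. The 12 also held Gm26320, Frmd8os, Gm5148 and a clone-named gene, for which no function is given here. Replicate 1 was higher at all 12 of these regions.

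**Figure D3:**
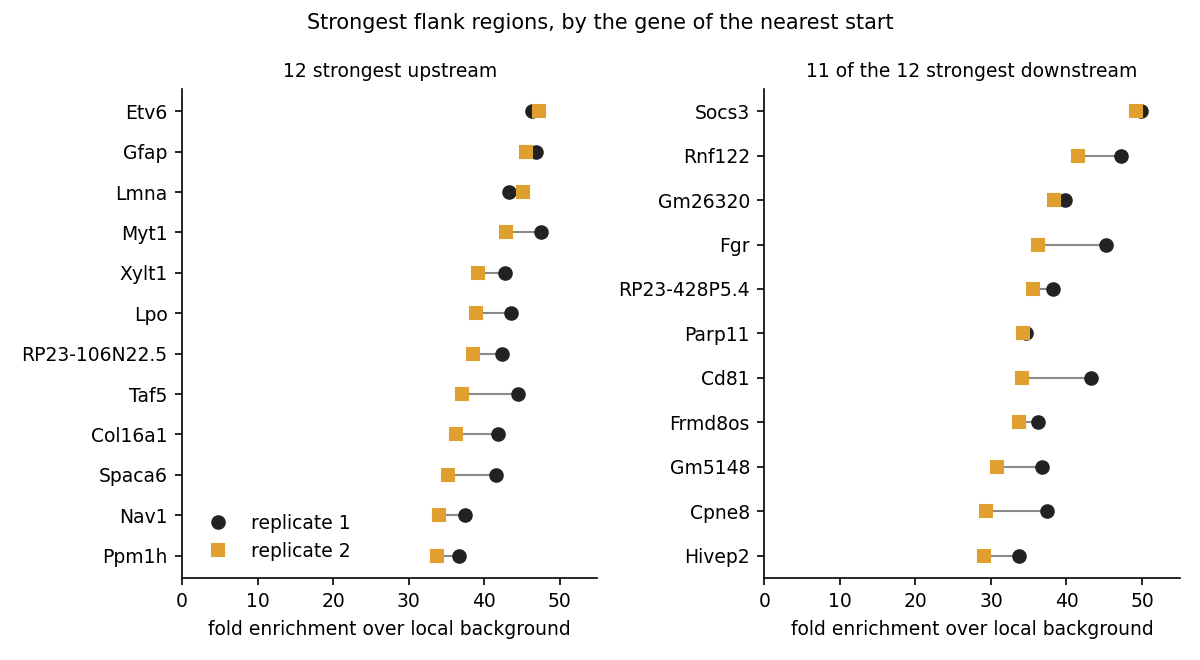
Fold enrichment in replicate 1 and replicate 2 of the 12 strongest upstream and 11 of the 12 strongest downstream flank regions, named by the nearest gene. The values run up to 49.9 for Socs3 downstream and 47.6 for Myt1 upstream, and the libraries lie close together at Etv6, Gfap, Socs3 and Parp11.

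The midpoint is not always where the enrichment peaked. Both summits lay on the midpoint's side of the start in 970 of 987 regions (98.3%, interval 97.3 to 98.9), and on the other side in 13, of which 5 were upstream and 8 downstream by midpoint. Most of that share was fixed in advance. A summit inside a region can lie on the other side only where the region covers the start, as 227 did. Col16a1 and Spaca6 were among the 5 upstream regions with both summits on the other side, at 120 and 105 bp and 101 and 115 bp downstream. Both summits lay within 250 bp of the start in 102 regions (10.3%), 66 upstream and 36 downstream, and beyond 1 kb in 48 (23 upstream and 25 downstream). Gfap (1437 and 1444 bp) and Rnf122 were of that last kind. Both summits stayed within the band in 807 (81.8%). The summits of both libraries were a median of 19 bp apart and at most 50 bp apart in 838 regions (84.9%, against 84.3% of all regions). They were over 250 bp apart in 14, among them Jak2, which encodes one of the JAK kinases (471 and 171 bp upstream), and Fabp7.

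**Figure D4:**
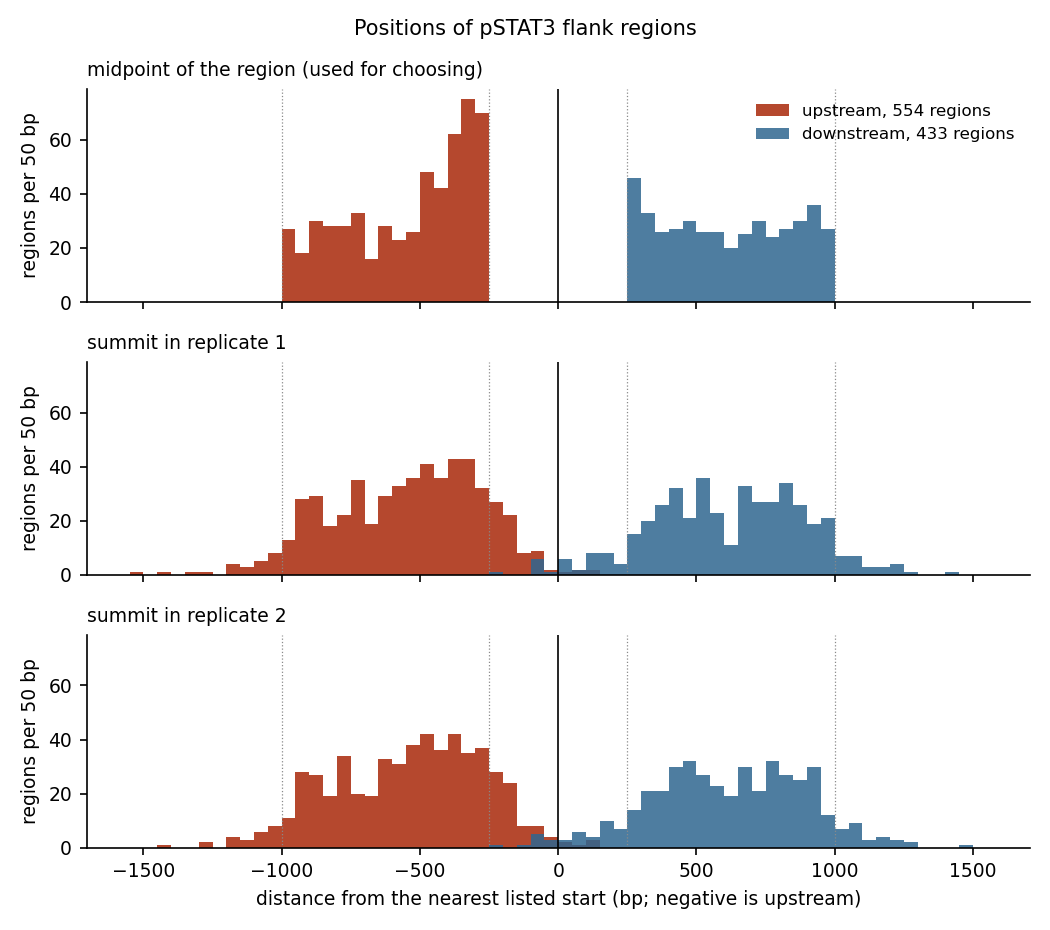
Histograms of the signed distance (bp) from the start to the midpoint and to the summits of replicates 1 and 2 of the flank regions. The midpoints fill the 2 bands that the definition sets, while some summits fall between them: both summits of 102 regions were within 250 bp of the start.

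Although their midpoints lay away from it, 227 flank regions (23.0%, interval 20.5 to 25.7) covered the start itself, 144 upstream (26.0%) and 83 downstream (19.2%), against 95.1% of core regions. The distance limits set much of that contrast, because core midpoints lie within 250 bp of the start. With the replicate 2 peak as the interval, 128 (13.0%) covered it. Covering regions were wider, which the definition brings about, since they must reach over 250 bp from the midpoint to the start. They were also stronger. The 144 upstream ones had a median width of 930.5 bp and median folds of 16.8 in replicate 1 and 11.4 in replicate 2, against 468 bp, 9.96 and 7.14 for the 410 that did not. The 83 downstream ones had 1017 bp, 13.1 and 9.18, against 471 bp, 9.80 and 7.32 for the other 350. Width thus moved with strength, and its part in the difference in folds was not tested. Over all flank regions, the median width was 560.5 bp upstream and 535 bp downstream, against 571 bp in the core and 477 bp from 1 to 5 kb.

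A further reproducible region lay within 5 kb of 257 flank regions (26.0%, interval 23.4 to 28.9), against 14.3% (12.6 to 16.1) of core regions, 29.1% of regions 1 to 5 kb away and 18.02% of all. The share was 26.7% upstream and 25.2% downstream. Near 76 genes with a flank region there was also a core region, and near 171 a region 1 to 5 kb away. Mnt, a transcriptional repressor that pairs with MAX and opposes MYC, and the predicted gene Gm3764 each had 3 flank regions. The Mnt regions had 7.09-fold and 5.82-fold enrichment upstream, and 9.53-fold and 9.50-fold and 27.6-fold and 22.6-fold downstream. Of the genes with flank regions, 36 had both an upstream and a downstream one, counted over all their listed starts. Cd63, a tetraspanin of endosomes, had 41.3-fold and 31.2-fold upstream and 11.7-fold and 7.94-fold downstream. At Hivep2 the order was the opposite, with 15.6-fold and 9.22-fold upstream and 33.7-fold and 29.0-fold downstream. Flank regions of 1 gene could belong to different listed starts, as at Myt1, whose second region was 748 bp downstream of another start with 6.22-fold and 3.87-fold enrichment.

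**Figure D5:**
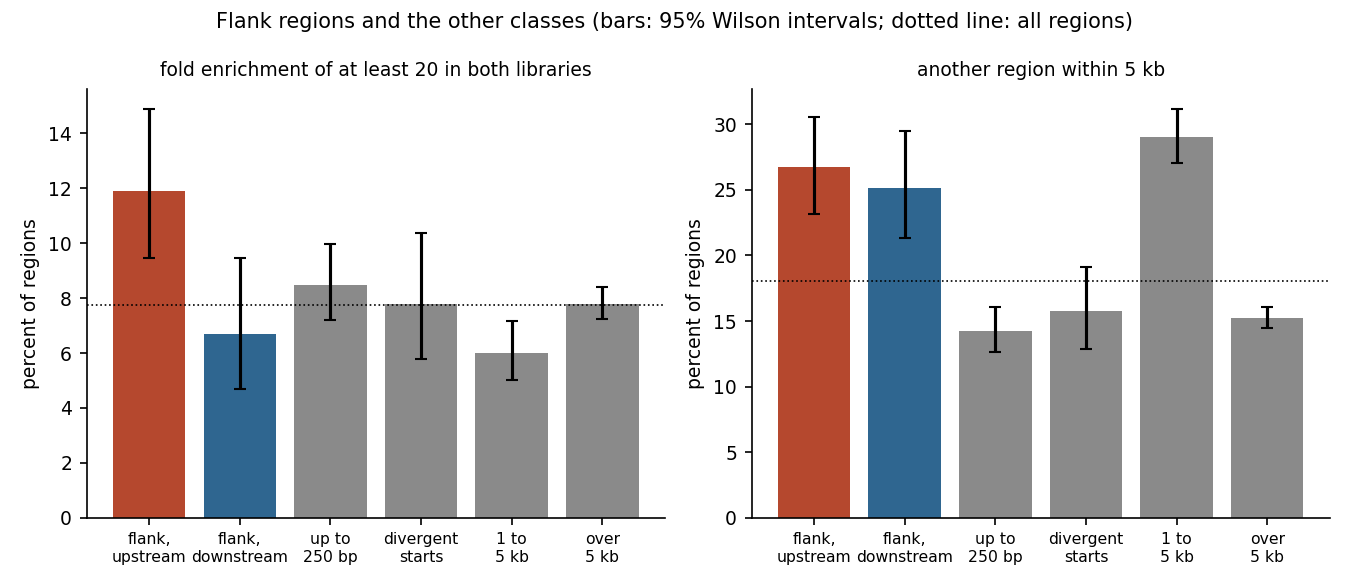
Percent of regions with a lower fold of at least 20, and percent with another region within 5 kb, for upstream and downstream flank regions and the other classes, with 95% Wilson intervals and a dotted line for all regions. Upstream flank regions reach 11.9% and downstream ones 6.70%, and 26.7% and 25.2% have a neighbour.

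Most downstream regions lay inside the gene they were assigned to, as their position implies, with 397 of 433 (91.7%) within a listed transcript of it. Upstream, 154 of 554 (27.8%) did so, through another transcript with an earlier start. The nearest gene was protein-coding by RefSeq in 779 (78.9%), against 90.7% of core regions and 66.2% of all. Long noncoding RNA genes made up 65 (6.59%, against 8.16% of all regions). Small RNA genes made up 29 (2.94%, against 5.10% of all), 10 upstream and 19 downstream. Pseudogenes made up 19 (1.93%, against 6.10% of all), while 94 were not matched (9.52%, against 14.4% of all). Exons, introns and untranslated regions were not annotated in the files used here. A single start within 1 kb was found for 647 flank regions (65.6%), against 41.3% of core regions.

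Of 487 genes on 15 lists of pathways and cell type markers, 147 had any region within 1 kb, and 56 had a flank region. Their 60 flank regions were 46 upstream and 14 downstream (76.7% upstream, interval 64.6 to 85.6), against 56.1% of all flank regions. Among the listed genes 36.1% of regions within 1 kb were flank regions, against 31.9% of all, and the median lower fold was 8.41, against 7.60 over all flank regions. The lists were chosen with results of these data known, so they are no independent evidence. ChIP regions do not tell which cells they came from, and marker genes are given as genes only.

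A flank region was found at 11.5% of all listed genes. Of 35 known STAT3 targets, 4 (11.4%) had a flank region: Socs3, Gfap, Klf6 (a zinc finger factor, 11.6-fold and 7.42-fold, downstream) and Ccnd1 (cyclin D1, 6.47-fold and 5.12-fold, upstream). That list had 22 regions within 1 kb, at 21 genes, and 18.2% of them were flank regions, against 31.9% over all genes. Of 40 JAK-STAT and gp130 pathway genes, Socs3 and Jak2 (7.82-fold and 5.71-fold) had one, which made 14.3% of that list's 14 regions within 1 kb. Jak2 lay below the lower quartile of all flank regions in both libraries. Of 53 kinase signalling genes 11 (20.8%) had 12 flank regions, and 11 of these 12 lay upstream. Irs2, the adaptor of insulin and IGF receptors, had 18.7-fold and 12.3-fold enrichment, and Spry2, a feedback inhibitor of receptor kinases, 17.8-fold and 15.6-fold.

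Immediate early genes included Btg2, Gadd45b (a stress-induced gene, 24.7-fold and 18.2-fold) and Egr2 (a zinc finger factor of myelinating Schwann cells, 18.5-fold and 16.9-fold). With Gadd45g and Klf6 they made 5 of 38 listed genes, 4 upstream and 1 downstream. That was 31.25% of that list's 16 regions within 1 kb, against 31.9% over all genes. Survival genes gave 3 of 32, namely Bbc3, Bad (13.1-fold and 11.5-fold) and Bcl2l11 (11.0-fold and 8.98-fold), all of which encode BH3-only promoters of apoptosis. Their regions were 37.5% of that list's 8 regions within 1 kb, at 7 genes, near the 31.9% over all genes. Notch, BMP and Wnt genes gave 4 of 42, which made 26.7% of that list's 15 regions within 1 kb. Hes1, the Notch target that represses differentiation, had 18.2-fold and 13.97-fold enrichment, and the BMP receptor gene Bmpr1a 19.4-fold and 13.1-fold.

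Oligodendrocyte lineage transcription factors had 13 flank regions at 11 of 40 genes, 11 upstream and 2 downstream, and these were 52.0% of that list's 25 regions within 1 kb. Besides Myt1, Id2 (an inhibitor of bHLH factors) had 33.1-fold and 22.3-fold enrichment, Etv5 (an ETS factor) 26.2-fold and 17.6-fold, and Sox2 (a factor of neural progenitors) 23.3-fold and 14.1-fold. The list's median lower fold was 7.94, against 7.60 over all flank regions. Progenitor markers gave 5 of 28, which made 62.5% of that list's 8 regions within 1 kb. Rnf122 and Xylt1 were high, and Pdgfra, the receptor of PDGF-AA, had 10.7-fold and 7.24-fold enrichment. The lower folds of Vcan and Serpine2 were 5.38 and 5.16. The median lower fold of these markers was 7.24, against 7.60 over all flank regions. Myelin and mature oligodendrocyte genes gave 2 of 36, Bcas1 (27.7-fold and 21.9-fold) and Plekhb1, whose 2 regions had 25.2-fold and 21.7-fold and 10.2-fold and 9.40-fold. All 3 of these regions lay upstream, and they made 50% of that list's 6 regions within 1 kb.

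Astrocyte markers gave 6 of 26, 5 upstream and 1 downstream, which made 37.5% of that list's 16 regions within 1 kb, against 31.9% over all genes. Apart from Gfap their folds were 10.6 and 12.5 at Cst3 (cystatin C), 13.5 and 9.72 at Ndrg2, 10.0 and 7.74 at Fabp7, 6.40 and 5.87 at the glutamate transporter gene Slc1a2, and 7.35 and 5.12 at Aldh1l1. The median lower fold of all 6, with Gfap, was 8.73, against 7.60 over all flank regions. Cst3 was the only one of the 6 that was higher in replicate 2. Neuron markers gave 2 of 20, with Map2, a microtubule protein of dendrites, at 33.6-fold and 25.9-fold and Gap43 at 5.15-fold and 3.60-fold. These made 40% of that list's 5 regions within 1 kb. Microglia markers gave Irf8 alone of 20. Cell cycle genes gave 4 of 40 with a median lower fold of 5.37, interferon and NF-kappaB regulators 2 of 40, and cholesterol genes 1 of 30, Srebf2 (9.85-fold and 6.38-fold).

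The regions nearest to the limits of 250 bp and 1 kb varied in strength on both sides of them. Just inside 250 bp upstream lay Lck (251 bp; 7.59-fold and 4.58-fold) and Ephb4 (251 bp; 9.80-fold and 5.64-fold), and just outside it Large and Lalba, both at 247 bp with 7.46-fold and 4.93-fold and 14.1-fold and 12.03-fold. Downstream, Ank2 (251 bp; 25.7-fold and 20.8-fold) and Ubald2 (254 bp; 18.5-fold and 13.6-fold) were inside, and Eef1e1 (245 bp; 17.4-fold and 10.9-fold) and Shc4 (247 bp; 6.30-fold and 4.61-fold) outside. At 1 kb upstream, Pde9a (995 bp; 10.3-fold and 6.79-fold) and Malat1 (999 bp; 6.95-fold and 7.84-fold) were inside, and Tnfsf8 (1001 bp; 9.08-fold and 5.00-fold) and Gpr3 (1007 bp; 9.62-fold and 5.31-fold) outside. At 1 kb downstream, Wscd1 (992 bp; 18.6-fold and 12.9-fold) and Map3k3 (995 bp; 6.30-fold and 4.61-fold) were inside, and Gm9915 (1001 bp; 16.8-fold and 12.1-fold) and Ltbp3 (1004 bp; 9.10-fold and 6.59-fold) outside.

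At the other end of the range, the weakest members were Smim5 (805 bp upstream; 2.41-fold and 2.29-fold), Dazap2 (626 bp downstream; 2.97-fold and 2.50-fold) and F3, the gene of tissue factor (748 bp downstream; 3.25-fold and 2.71-fold). An irreproducible discovery rate of 0.01 or below, which says how well the ranks of both libraries match, was met by 800 flank regions (81.1%, interval 78.5 to 83.4), 453 upstream (81.8%) and 347 downstream (80.1%), against 78.1% of core regions and 79.3% of all regions.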

How the data were processed

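Peaks came from 2 pSTAT3 ChIP libraries, with 42131 peaks in replicate 1 and 26537 in replicate 2 on the numbered chromosomes, X and Y. Reads were handled with CASAVA 1.8, Bowtie2 and MACS2 on GRCm38.p3, per the submitters' processing notes. Pileup signal, the fragments stacked at a summit, and fold enrichment, a ratio to local background, are the authors' values per peak, per the file headers. The -log10 p and -log10 q have damaged headers in the deposited lists and were identified from their values. The deposited region table holds in its adjusted p-value column the irreproducible discovery rate, at most 0.05. Its fold and pileup columns are identical and equal the mean -log10 p of both libraries in 12924 of 12925 regions, so they were not used as folds.

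A region took the strongest peak of each library that overlaps it by at least 1 bp, and strength was the lower fold. Positions are 1-based. Starts came from the transcripts in the table, listed within 25 kb. Values were computed in Python 3.11.15 (pandas 2.3.3, numpy 2.4.6, scipy 1.17.1; figures with matplotlib 3.10.9), and the steps were tested on simulated data. Symbols, biotypes and promoter windows came from RefSeq (GRCm38.p6). Members, the 15 lists and the 12 symbol families were chosen with earlier results of these data known. Named genes were the 12 strongest regions per side, up to 4 per list and 2 per family, those at the limits, the 3 weakest, the genes with most flank regions, and a few chosen genes; any other gene was picked with its values in view. The sources used here give no read depth; the caller's lowest background was 4.72 in replicate 1 and 2.91 in replicate 2. Wilson intervals (95%) cover counting error over regions only, and regions are not replicates. Alternatives were other positions, limits, thresholds, strength measures, start sets and each library alone. A few values of single genes are not reported here.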

Additional observations from a re-analysis of the deposited data

How the results depend on the processing

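Over 12 results, 85 values were computed under alternatives, and 52 stayed within the margin set for them. That margin was the spread between libraries for differences and the counting interval for shares. Numbers of regions or genes and the distance between summits had a wide fixed ratio instead. By that ratio, 657 upstream regions with a lower limit of 200 bp counted as unmoved from 554. Log2 differences of median strength were near 0, so small shifts changed them, and the cause of no shift was tested. Upstream minus downstream was 0.02; it was 0.045 with the replicate 1 summit as position, 0.0092 with the replicate 2 summit, -0.0035 with a lower limit of 200 bp, -0.0074 with 300 bp, 0.037 with an upper limit of 750 bp, 0.00078 with starts of named genes only, 0.055 by mean -log10 p and 0.043 by the lower pileup. Flank minus core was 0.03; it was -0.015 at an IDR of 0.01, -0.0032 with the replicate 2 summit, -0.0032 with named genes, -0.022 by mean -log10 p, 0 by pileup, and -0.0010 to 0.045 with 1 library left out. Both differences turned sign under some of these. Flank minus 1 to 5 kb was 0.03; it was 0.043 at an IDR of 0.01, 0.00024 and 0 with the replicate 1 and 2 summits, 0.045, 0.020 and 0.017 with limits of 200, 300 and 750 bp, 0.017 with named genes, 0.038 with 50% overlap, 0.030 at a -log10 q of 10, 0.074 by mean -log10 p, 0.044 by pileup, and 0.044 to 0.047 with 1 library left out.

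The upstream excess of regions at 20-fold was 5.22 percentage points, 2.70 with the replicate 2 summit, and 2.89 to 5.22 with 1 library left out (2.89 without replicate 2); it stayed above 0 in all 11 alternatives, from 2.70 to 6.54. The upstream share was 59.4% with an upper limit of 750 bp, against 56.1%. The share covering the start was 25.8% at an IDR of 0.01 and 13.0% with replicate 2 peaks, against 23.0%. The motif share was 2.79% for TTCCNGGAA, against 9.16% for TTCNNNGAA. Of 1017 flank regions by the replicate 1 summit, 822 were members by midpoint, and of 1013 by the replicate 2 summit, 805. The alternatives for the listed genes, the share at 20-fold and the distance between summits were added after seeing the data. No paired analysis was possible because the inputs, which share replicate numbers with the ChIP libraries, were not analysed here and no test was made. All regions had a peak in both libraries, so peaks of replicate 1 without a replicate 2 peak were not examined here. Without read counts, their signal in replicate 2 cannot be read. The lower background of replicate 2 goes with its lower folds, and their relation was not tested.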

Other observations

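Families of gene symbols differed in how their regions within 1 kb of a start were divided. Of 26 such regions at small nucleolar and microRNA genes, 17 (65.4%) were flank regions, and of 247 at predicted genes 115 (46.6%), against 31.9% of all 3092. Mir148b had 24.8-fold and 20.0-fold enrichment in replicates 1 and 2, and Mir6352 22.9-fold and 20.4-fold. Of 71 regions at zinc finger genes 8 (11.3%) were flank regions, of 23 at cytosolic ribosomal protein genes 2 (Rps10 at 24.8-fold and 19.2-fold, Rpl37 at 10.6-fold and 6.06-fold), and of 17 at mitochondrial ribosomal protein genes 0. Solute carrier genes had 15 of 47, with the glutamine transporter gene Slc38a3 at 41.7-fold and 28.0-fold and the neutral amino acid transporter gene Slc1a4 at 26.6-fold and 26.8-fold. RAB GTPase genes had 6 of 13, potassium channel genes 3 of 7, transmembrane protein genes 5 of 27, RIKEN clone-named genes 43 of 172 (25.0%), forkhead genes 2 of 4 and RING ligase genes 1 of 14, which was Rnf122.

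The share of regions that were flank regions ran from 3.61% on chromosome 18 (17 of 471) to 11.4% on chromosome X (22 of 193), leaving out chromosome Y, which had 3 regions in all.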
